A study of Homo sapiens with 18 samples.

Results

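The genes described here are 6 Toll-like receptor genes (TLR1, TLR3, TLR6, TLR7, TLR9 and TLR10) and 4 genes whose products work with the receptors (UNC93B1, SLC15A4, TASL and MYD88). They were listed by symbol and looked up in the gene table of the array platform, and each gene was represented by the probe set that named it alone and had the highest mean over all arrays. Of the 10 listed genes, 9 were measured, out of 18417 genes in all, and TLR10 was not analysed here. Of these 9, 8 had a single probe set each, and UNC93B1 had 3.

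The samples came from Raji, a line of B cells that was established from a Burkitt lymphoma and carries Epstein-Barr virus, and were profiled on 18 Affymetrix gene expression arrays. Per the labels, cells were first induced with sodium n-butyrate (3 mM) and a phorbol ester (0.05 µM), which are classical inducers of the viral lytic cycle in such cells, and were treated with maslinic acid (19 µM), a plant triterpene. Harvest times were 0, 4, 8, 12, 24 and 48 h, and each time has 3 arrays, which the labels describe as biological replicates. The labels give all 3 compounds for every array, those of 0 h included, so the effects of the compounds and of time in culture cannot be told apart, nor those of one compound from another. The cells are 1 line carrying a virus, which limits them as a model of B cells.

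Toll-like receptors recognise conserved molecules of microbes through an ectodomain and signal through a cytoplasmic domain. TLR3, TLR7 and TLR9 reside in endosomes, where they bind double-stranded RNA, single-stranded RNA and unmethylated CpG DNA, and they need the chaperone UNC93B1 to get there. TLR1 and TLR6 act at the cell surface as partners of TLR2 in the recognition of bacterial lipopeptides. Most of these receptors signal through the adaptor MYD88, whereas TLR3 uses another adaptor, TICAM1. TASL binds the endolysosomal transporter SLC15A4 and couples TLR7 and TLR9 to the transcription factor IRF5, while NF-kappaB drives inflammatory genes downstream of MYD88. B cells are known for high TLR7 and TLR9 among the endosomal receptors.

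TASL fell at every later time, and TLR7, TLR3 and MYD88 rose late. By limma's moderated F test over the 5 later times against 0 h, 4 of the 9 measured genes changed (TASL, TLR7, TLR3 and MYD88), where 16.4% of all genes tested did at the same adjusted p under 0.05. TASL was at least 3.44-fold lower at 4 h and at least 4.52-fold lower at 12 h than at 0 h. TLR7 was 2.64-fold higher at 48 h, TLR3 was at least 2.77-fold higher at 24 h and MYD88 was 2.0-fold higher at 24 h. TLR1, TLR6, TLR9, SLC15A4 and UNC93B1 did not pass. When replicate 2 of 0 h was left out, 7 of the 9 passed the F test, with TLR1, TLR6 and SLC15A4 added (adjusted p = 0.0164, 0.0207 and 0.0438). The share of all genes passing without that array was not counted. Where "at least" is written, the lower level was near background. All levels below are deposited log2 intensities, and all differences are log2 differences, given with their standard error (SE) from the model.

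The proximal promoters of 3 of the 4 genes that passed are shown because their transcripts moved in different directions, TASL down and TLR3 and MYD88 up. The sequences are RefSeq's, from assembly GRCh38.p14, and run 5′ to 3′ on the strand of the gene over the 250 bases before its start. Of the 10 genes, 6 had an entry, and TLR1, TLR7, TLR10 and UNC93B1 did not. Capitals mark letters that match 1 of 4 motifs on either strand. These were an interferon-stimulated response element (GAAA, any 2 bases, GAAA), an interferon-gamma activated site (TTCNNNGAA), a kappaB site (GGG, any 2 bases, TTTCC) and an AP-1 site (TGANTCA).
TASL, chrX:30577767-30578016, minus strand: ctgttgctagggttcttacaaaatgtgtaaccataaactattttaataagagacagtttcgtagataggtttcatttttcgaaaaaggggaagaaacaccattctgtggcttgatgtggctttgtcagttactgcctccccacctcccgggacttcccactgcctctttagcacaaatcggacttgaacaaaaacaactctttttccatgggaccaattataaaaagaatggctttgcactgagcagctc
TLR3, chr4:186068906-186069155, plus strand: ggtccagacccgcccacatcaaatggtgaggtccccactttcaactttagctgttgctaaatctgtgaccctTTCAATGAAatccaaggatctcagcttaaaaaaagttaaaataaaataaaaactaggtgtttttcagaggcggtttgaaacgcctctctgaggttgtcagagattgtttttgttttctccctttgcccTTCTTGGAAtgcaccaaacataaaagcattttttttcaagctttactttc
MYD88, chr3:38138411-38138660, plus strand: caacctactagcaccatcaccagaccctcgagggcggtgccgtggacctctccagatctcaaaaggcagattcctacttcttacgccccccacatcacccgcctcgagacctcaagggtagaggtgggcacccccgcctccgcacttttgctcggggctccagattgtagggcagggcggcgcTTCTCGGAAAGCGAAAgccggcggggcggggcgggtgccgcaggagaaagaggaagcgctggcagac
The MYD88 window held 1 match to the response element, at bases -61 to -52 before the start, and it overlapped 1 match to the activated site at -67 to -59. The TLR3 window held 2 matches to the activated site, at -178 to -170 and at -50 to -42. In the TASL window no letters matched any of the 4 motifs as spelled here. Looser spellings of these sites were not searched in any window, so such sites may be present. Over 14239 promoter windows of the same length, 2.57% held the response element, 6.15% the activated site, 1.83% the kappaB site and 4.91% the AP-1 site. Of the other windows, that of TLR9 held 1 match to the AP-1 site at -87 to -81, and those of TLR6 and SLC15A4 held no match to the 4 motifs. A match is a run of letters and was not tested for binding.

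**Figure D1:**
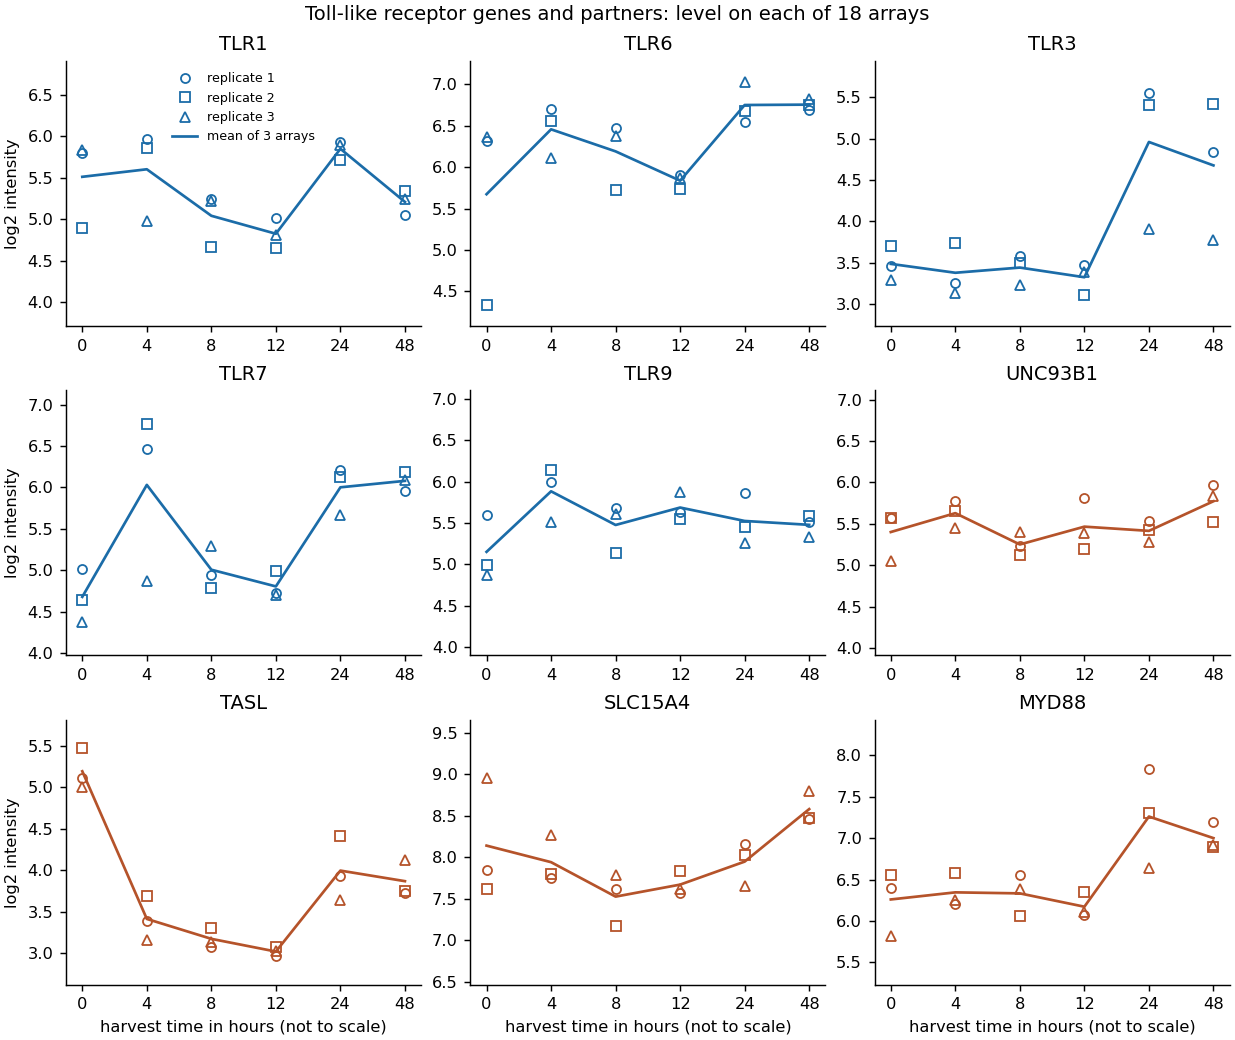
Levels of the 9 measured genes (log2 intensity, vertical axis) at each harvest time (h, horizontal axis, evenly spaced), with 1 point per array and the mean of the 3 arrays as a line. TASL drops between 0 h and 4 h, TLR3 and MYD88 lie highest at 24 h and 48 h, with replicate 3 lowest for TLR3, and 1 array of TLR6 at 0 h lies at 4.33, apart from the others.

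Among the endosomal receptors, TLR7 was raised at 4 h and again at 24 h and 48 h. At 0 h its level was 5.01, 4.64 and 4.38 in replicates 1 to 3, and at 4 h it was 6.46, 6.76 and 4.87. At 8 h the 3 arrays read 4.95, 4.78 and 5.29, and at 12 h they read 4.73, 4.99 and 4.70. At 24 h they read 6.21, 6.13 and 5.66, and at 48 h 5.95, 6.19 and 6.09. All arrays of 24 h and 48 h lay above all arrays of 0, 8 and 12 h, whereas at 4 h replicate 3 lay among the arrays of 0 h. TLR7 rose by 1.40 at 48 h (SE 0.34, adjusted p = 0.00723) and by 1.32 at 24 h (adjusted p = 0.0129). Its rise of 1.35 at 4 h (adjusted p = 0.0481) was near the threshold, with an SD of 1.02 over the 3 arrays of 4 h against 0.32 at 0 h. The 4 h call was lost when arrays were quantile normalized (adjusted p = 0.0546) or centred on their medians (0.0542), in the fit of these 2 times alone (0.216), and when 1 array was left out in 15 of 18 cases, all but replicate 3 of 4 h and replicates 2 and 3 of 8 h. The differences of 0.33 at 8 h and 0.13 at 12 h did not pass. In the order of its mean levels TLR7 ran 48, 4, 24, 8, 12 and 0 h, and among neighbours in that order only 24 h and 8 h had arrays that did not overlap. The 24 h call did not hold when replicate 3 of 0 h (adjusted p = 0.0571), replicate 1 of 24 h (0.0580) or replicate 2 of 24 h (0.0509) was left out.

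TLR3, the receptor for double-stranded RNA, was near the lower end of the scale until 12 h and higher afterwards. At 0 h the arrays read 3.46, 3.71 and 3.30, at 4 h 3.26, 3.74 and 3.14, at 8 h 3.59, 3.50 and 3.24, and at 12 h 3.47, 3.12 and 3.39. At 24 h they read 5.56, 5.41 and 3.91, and at 48 h 4.83, 5.42 and 3.78. Every array of 24 h and 48 h lay above every array of the 4 earlier times, and replicate 3 was the lowest of its time at both. TLR3 rose by at least 1.47 at 24 h (SE 0.38, adjusted p = 0.0140) and by at least 1.19 at 48 h (adjusted p = 0.0405), and by at least 1.63 from 12 h to 24 h (adjusted p = 0.0387). The mean levels were ordered 24, 48, 0, 8, 4 and 12 h, and only the step between 48 h and 0 h separated arrays without overlap. Without replicate 3 of 24 h the rise at 24 h was 2.0 (adjusted p = 0.000578). The call at 24 h did not hold when replicate 1 of 24 h (adjusted p = 0.0872), replicate 2 of 24 h (0.0777) or replicate 3 of 0 h (0.0508) was left out. The call from 12 h to 24 h was lost in the fit of 2 times alone (0.0644) and held in 11 of 18 cases with 1 array left out. The call at 48 h was lost with median centring (adjusted p = 0.0551), in the fit of 2 times alone (0.0665) and in 8 of 18 cases with 1 array left out, which were any array of 0 h, replicate 1 of 4 h, replicates 1 and 3 of 12 h and replicates 1 and 2 of 48 h.

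TLR9, the receptor for CpG DNA, did not pass at any time. Its arrays read 5.60, 4.99 and 4.87 at 0 h and 6.0, 6.14 and 5.52 at 4 h, the time of its highest mean. At 8, 12, 24 and 48 h the 12 arrays lay between 5.14 and 5.88. The difference at 4 h was 0.73 (SE 0.22, adjusted p = 0.116), and those at the other times lay between 0.32 and 0.54 above 0 h. All 5 means were above 0 h, none passed the test, and neighbours in the order of its means (4, 12, 24, 48, 8 and 0 h) overlapped throughout. Of 18 cases with 1 array left out, the 4 h difference passed in 1, without replicate 1 of 0 h (0.95, adjusted p = 0.0470).

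Of the surface receptors, TLR6 had the larger difference from 0 h, and its size rested on 1 array of 0 h. At 0 h TLR6 read 6.32, 4.33 and 6.37, so that replicate 2 was far below the other two. At 4 h it read 6.71, 6.55 and 6.11, at 8 h 6.47, 5.73 and 6.37, and at 12 h 5.91, 5.73 and 5.87. At 24 h it read 6.55, 6.68 and 7.03, and at 48 h 6.69, 6.75 and 6.82, above all 3 arrays of 0 h at both times. The difference from 0 h was 1.08 at 24 h (SE 0.37, adjusted p = 0.0709) and 1.08 at 48 h (adjusted p = 0.0604). Both passed without replicate 1 of 0 h (adjusted p = 0.0312 at 24 h and 0.0246 at 48 h) or replicate 3 of 0 h (0.0233 and 0.0192). The 48 h difference also passed with quantile normalization (0.0296). Without replicate 2 of 0 h both differences were 0.41 (adjusted p = 0.357 and 0.302). That array also had the lowest CXCL10 of its time, at 4.70 against 7.02 and 6.72, and its part in the TLR6 values was not tested beyond leaving it out. From 12 h to 24 h TLR6 rose by 0.91, with arrays that did not overlap, and was not called (SE 0.37, adjusted p = 0.350). This step passed in 2 of 9 settings, the arrays of 2 times alone (adjusted p = 0.0262) and 3 arrays left out after seeing the data (0.0230). Of 18 cases with 1 array left out it passed in 1, without replicate 2 of 0 h (0.0296). Neighbours in the order of the TLR6 means (48, 24, 4, 8, 12 and 0 h) overlapped.

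TLR1 read 5.80, 4.90 and 5.83 at 0 h, 5.97, 5.86 and 4.97 at 4 h, and 5.25, 4.66 and 5.22 at 8 h. At 12 h it read 5.01, 4.65 and 4.81, at 24 h 5.93, 5.72 and 5.90, and at 48 h 5.05, 5.34 and 5.24. The 12 h arrays were all below the 24 h arrays, and the step of 1.03 between these times missed the threshold (SE 0.26, adjusted p = 0.0661). It passed with median centring (adjusted p = 0.0422), array weights (0.00535), the arrays of 2 times alone (0.0121), without 3 arrays that stand apart (replicate 2 of 0 h, replicate 2 of 8 h and replicate 3 of 24 h, chosen after seeing the data, 0.0452), and when replicate 2 of 0 h (0.0326) or replicate 3 of 4 h (0.0262) was left out. No difference of TLR1 from 0 h passed, the lowest being -0.69 at 12 h (adjusted p = 0.130). That difference passed with array weights (adjusted p = 0.0308), without the 3 arrays (0.0221) and without replicate 2 of 0 h (-0.99, adjusted p = 0.0283). Neighbours in the order of the means (24, 4, 0, 48, 8 and 12 h) overlapped.

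UNC93B1, the chaperone of the endosomal receptors, stayed between 5.06 and 5.97 on all 18 arrays. Its differences from 0 h were 0.23, -0.15, 0.07, 0.01 and 0.37 at 4, 8, 12, 24 and 48 h (SE 0.19), and none passed (adjusted p = 0.221 at 48 h). A second probe set gave nearly the same differences, from -0.21 to 0.34, and the third, of lower level, gave values from -0.45 to 0.05, also without a call. The third set was of opposite sign to the first at 4 h (-0.14), 12 h (-0.23) and 48 h (-0.18), and the second was at 12 h (-0.05). Which set reads the gene best was not tested. Arrays of neighbouring means overlapped at every step of the order 48, 4, 12, 24, 0 and 8 h.

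TASL, which couples TLR7 and TLR9 to IRF5, had the largest change of the 9 genes. At 0 h its arrays read 5.11, 5.47 and 5.0, and at 4 h they read 3.39, 3.69 and 3.15. At 8 h they read 3.08, 3.31 and 3.13, and at 12 h 2.96, 3.07 and 3.02. At 24 h they read 3.93, 4.42 and 3.64, and at 48 h 3.72, 3.75 and 4.13. Every array after 0 h was below every array of 0 h, and the 12 h arrays were the lowest of all. Relative to 0 h, TASL fell by 1.78 at 4 h (SE 0.20, adjusted p = 0.000284), by 2.02 at 8 h (adjusted p = 1.19e-05) and by 2.18 at 12 h (adjusted p = 3.22e-06). It stayed lower at the late times, where it fell by 1.20 at 24 h (adjusted p = 0.000438) and by 1.33 at 48 h (adjusted p = 0.000111), and it rose by at least 0.98 from 12 h to 24 h (adjusted p = 0.0144). In the order 0, 24, 48, 4, 8 and 12 h, arrays did not overlap between 0 h and 24 h, between 48 h and 4 h, and between 8 h and 12 h. One array, replicate 1 of 12 h, lay below the lower quartile of all probe sets on its array, and the quartiles of the 18 arrays ran from 2.89 to 3.24. The 4, 8 and 12 h levels were thus near background, so the falls at these times and the rise from 12 h are lower limits. All 5 differences from 0 h kept their direction and call under each of 27 alternatives. The 24 h against 12 h call was lost without replicate 1 or 3 of 12 h or replicate 1 or 2 of 24 h (highest adjusted p = 0.0899).

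SLC15A4, the transporter that TASL binds, did not pass at any time. Its arrays read 7.85, 7.62 and 8.96 at 0 h, 7.75, 7.80 and 8.27 at 4 h, and 7.62, 7.17 and 7.79 at 8 h. At 12 h they read 7.57, 7.83 and 7.61, at 24 h 8.16, 8.03 and 7.65, and at 48 h 8.46, 8.48 and 8.81. Replicate 3 of 0 h was the highest of the 18 arrays, and neighbours in the order of the means (48, 0, 24, 4, 12 and 8 h) overlapped. The difference from 0 h was -0.62 at 8 h (SE 0.27, adjusted p = 0.238) and 0.44 at 48 h (adjusted p = 0.341). Without replicate 3 of 0 h the latter was 0.85 and passed (adjusted p = 0.0151).

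MYD88, the shared adaptor, read 6.40, 6.56 and 5.82 at 0 h and lay between 6.06 and 6.58 on the 9 arrays of 4, 8 and 12 h. At 24 h it read 7.84, 7.31 and 6.64, and at 48 h 7.20, 6.89 and 6.91. All 6 arrays of 24 h and 48 h lay above all 12 earlier arrays, and replicate 3 was the lowest of 24 h. MYD88 rose by 1.00 at 24 h (SE 0.25, adjusted p = 0.0116) and by 1.09 from 12 h to 24 h (adjusted p = 0.0370), and the difference of 0.74 at 48 h missed the threshold (adjusted p = 0.0546). Its means were ordered 24, 48, 4, 8, 0 and 12 h, with a gap between 48 h and 4 h only. The 24 h call was lost in the fit of 2 times alone (adjusted p = 0.0701) and when replicate 3 of 0 h (0.0677) or replicate 1 of 24 h (0.0811) was left out. The call from 12 h to 24 h was lost in the fit of 2 times alone (0.0821) and held in 12 of 18 cases with 1 array left out. The 48 h difference passed with quantile normalization (adjusted p = 0.0296) and without the dimmest genes (0.0466).

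**Figure D2:**
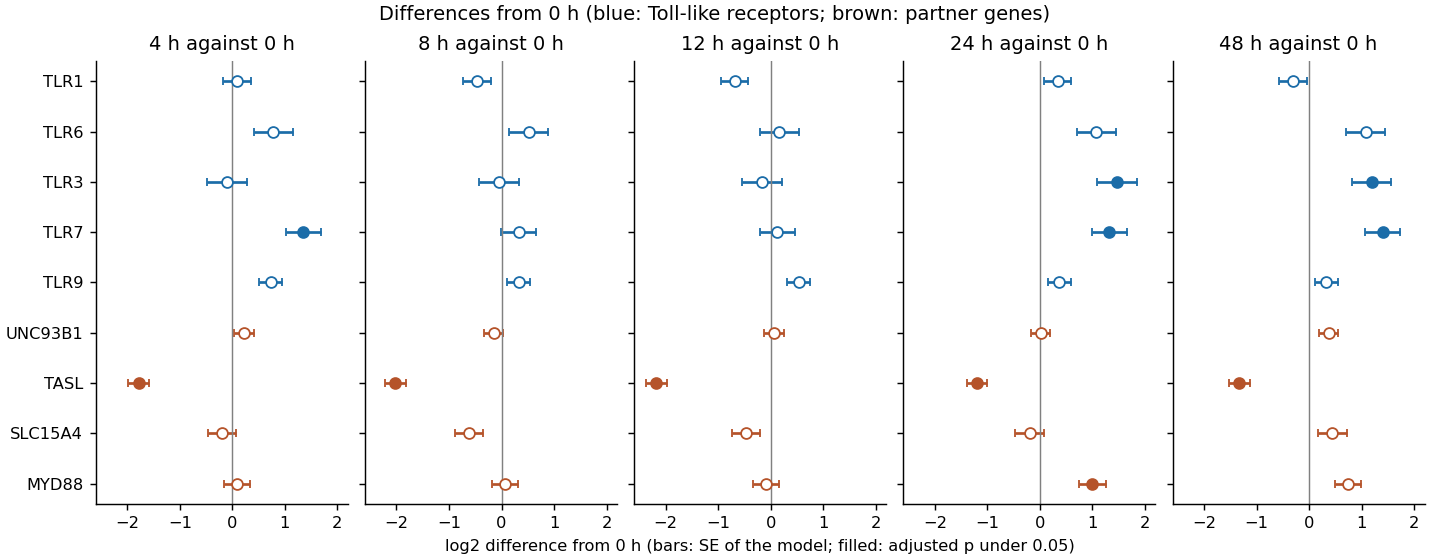
Difference of each of the 9 measured genes from 0 h (log2, later minus 0 h) at 4, 8, 12, 24 and 48 h, with bars of 1 SE, and filled points where the adjusted p was under 0.05. TASL lies below 0 at all 5 times, and TLR3, TLR7, MYD88 and TLR6 lie at 1.00 or higher at 24 h, TLR6 without a call.

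The 5 comparisons with 0 h share its 3 arrays, so they are given side by side. At 4 h TLR7 was called higher and TASL lower, 2 of 9 genes, where 1.75% of all genes tested were called (1.16% higher and 0.586% lower). At 8 h and 12 h TASL alone was called, where 6.68% and 8.05% of all genes were, 3.18% and 4.14% as lower. At 24 h TLR3, TLR7 and MYD88 rose and TASL fell, 4 of 9 genes, where 12.5% of all genes were called (6.74% higher and 5.74% lower). That count fell to 1, TASL alone, when replicate 1 of 24 h was left out. Dropping replicate 2 of 24 h left MYD88 and TASL, a count of 2. Dropping replicate 3 of 0 h also gave 2, but these were TASL and TLR6 (adjusted p = 0.0233 for TLR6). In that case the rises of TLR3, TLR7 and MYD88 all lost their calls. At 48 h TLR3 and TLR7 rose and TASL fell, 3 of 9 genes, where 15% of all genes were called (6.92% higher and 8.11% lower). The median difference over the 9 genes was 0.09, -0.04, -0.09, 0.37 and 0.44 at the 5 times, beside medians over all genes of 0.03, -0.02, 0.05, -0.01 and 0.05.

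Between consecutive times, the step from 12 h to 24 h held the calls. There TLR3, TASL and MYD88 rose, 3 of 9 genes, where 1.37% of all genes were called (0.814% higher and 0.554% lower). In that step the median of the 9 genes was 0.98, beside -0.04 over all genes, and the count of 3 was 0 without replicate 1 or 3 of 12 h or replicate 1 or 2 of 24 h. It was 1 without replicate 2 of 12 h or replicate 1 of 4 h. Leaving out replicate 2 of 0 h or replicate 3 of 4 h gave a count of 5. In the fit of these 2 times alone TLR3 and MYD88 lost their calls (adjusted p = 0.0644 and 0.0821). TASL kept its call there (0.0428), and TLR1, TLR7 and TLR6 were called. None of the 9 genes was called from 4 h to 8 h (0.223% of all genes, 0.119% higher and 0.103% lower), from 8 h to 12 h (0%) or from 24 h to 48 h (0.402%, with 0.0706% higher and 0.331% lower). In the step from 8 h to 12 h limma called no gene at all, with 1221 genes at an unadjusted p under 0.05. The TLR7 difference of -1.02 from 4 h to 8 h did not pass (adjusted p = 0.330).

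The 3 Toll-like receptor genes measured outside the listed 10 were TLR2, TLR4 and TLR8, and none passed the F test. TLR2, the partner of TLR1 and TLR6, lay between 2.93 and 3.86 on the 18 arrays. TLR8, an endosomal RNA receptor, lay between 2.21 and 3.61 and below the lower quartile of its array on 17 of 18. TLR4, the lipopolysaccharide receptor, rose by 1.28 at 24 h (SE 0.37, adjusted p = 0.0276) and by 1.16 at 48 h (adjusted p = 0.0404). The 24 h call was lost without replicate 2 or 3 of 0 h or replicate 1 or 2 of 24 h, and the 48 h call without those of 0 h, replicate 3 of 12 h, replicate 2 of 24 h or any array of 48 h.

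Of 19 co-receptors, chaperones and processing enzymes, 7 passed the F test, and at 24 h 6 rose and 2 fell, with a median difference of 0.19, beside -0.01 over all genes. Of all genes, 16.4% passed the F test, and 6.74% were called higher and 5.74% lower at 24 h. LGMN, a lysosomal protease that can cleave endosomal receptors, rose by 1.51 at 12 h (SE 0.17, adjusted p = 1.93e-05). LY96, the co-receptor of TLR4, rose by 1.51 at 48 h (adjusted p = 0.00197). LY86, which forms a complex with the TLR4-like protein CD180, fell by 1.98 at 12 h (adjusted p = 0.000115), and CD180 fell by 1.35 at 24 h (adjusted p = 0.000281). CD36, a scavenger receptor that assists the TLR2 and TLR6 pair, rose by at least 1.54 at 48 h and was below the lower quartile on 13 of 18 arrays. The 8 calls at 24 h became 3 when replicate 1 of 24 h was left out, 4 when replicate 2 of 24 h or of 0 h was, and 5 when replicate 1 of 0 h was. None of 4 further transporters of the SLC15 family passed, the smallest F test adjusted p being 0.204 for SLC15A2 and 0.559 for SLC15A3.

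Of 16 adaptors and kinases of the pathway, 4 passed the F test, and at 4 h 3 rose and 0 fell. Over all genes, 16.4% passed the F test, and at 4 h 1.16% were called higher and 0.586% lower. MAP3K8, a kinase upstream of ERK, rose by 1.38 at 4 h (SE 0.20, adjusted p = 0.00192). TAB3 and TAB2, which recruit the kinase TAK1 to ubiquitin chains, rose by 0.94 and 0.88 at 4 h (adjusted p = 0.00427 and 0.0244). The TAB2 call was lost without replicate 1 or 2 of 0 h or any 1 array of 4 h. CHUK, an NF-kappaB kinase, passed the F test with a difference of 0.36 at 4 h that did not pass (adjusted p = 0.303).

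Of 11 transcription factors downstream of the receptors, 3 passed the F test, and at 24 h 3 rose and 0 fell (median 0.45). The share of all genes was 16.4% by the F test, with 6.74% higher and 5.74% lower at 24 h. IRF1, itself induced by interferon, read 4.62, 3.79 and 4.90 at 0 h and 8.59, 7.81 and 5.29 at 24 h. It rose by 2.79 (adjusted p = 0.00251), and replicate 3 was the lowest of 24 h. IRF4, a lymphoid factor that binds MYD88, rose by 2.37 at 24 h (adjusted p = 0.000157), and NFKB2, the p100 subunit of NF-kappaB, by 1.23 at 48 h. IRF5, to which TASL couples, and IRF7, a factor of the TLR7 and TLR9 pathway, differed from 0 h by 0.31 and 0.02 at 24 h, without a call. At 48 h 4 of the factors rose, where 6.92% of all genes did, and 2 rose without replicate 2 of 0 h or of 48 h.

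Of 16 inhibitors of the pathway, 7 passed the F test, and 8 rose and 0 fell at 24 h, with medians of 0.60 at 24 h and 0.73 at 48 h. Beside these, 16.4% of all genes passed the F test, 6.74% rose at 24 h and 6.92% rose at 48 h. TNFAIP3, a ubiquitin-editing brake on NF-kappaB, rose by 2.33 at 48 h and the inhibitor NFKBIA by 2.01 at 24 h. CYLD, a deubiquitinase, and PTPN6, a phosphatase, rose by 1.85 and 1.74 at 48 h. The 24 h count was 5 without replicate 1 or 2 of 24 h, and the 48 h count of 8 was 5 without replicate 1 of 0 h or replicate 1 or 2 of 48 h.

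Of 21 cytokine and surface targets, 10 passed the F test, and 13 rose and 0 fell at 24 h (median 1.89). By comparison, 16.4% of all genes passed the F test, and 6.74% rose and 5.74% fell at 24 h. The cytokine TNF read 4.28, 3.31 and 3.59 at 0 h and 8.15, 7.0 and 7.35 at 24 h, a rise of 3.77 (SE 0.31, adjusted p = 4.03e-07). The chemokines CCL5 and CXCL10 rose by 5.01 and 4.28 at 48 h, and the survival gene BCL2A1 rose by 3.33. The count of 13 was 8 without replicate 1 or 2 of 0 h or of 24 h.

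**Figure D3:**
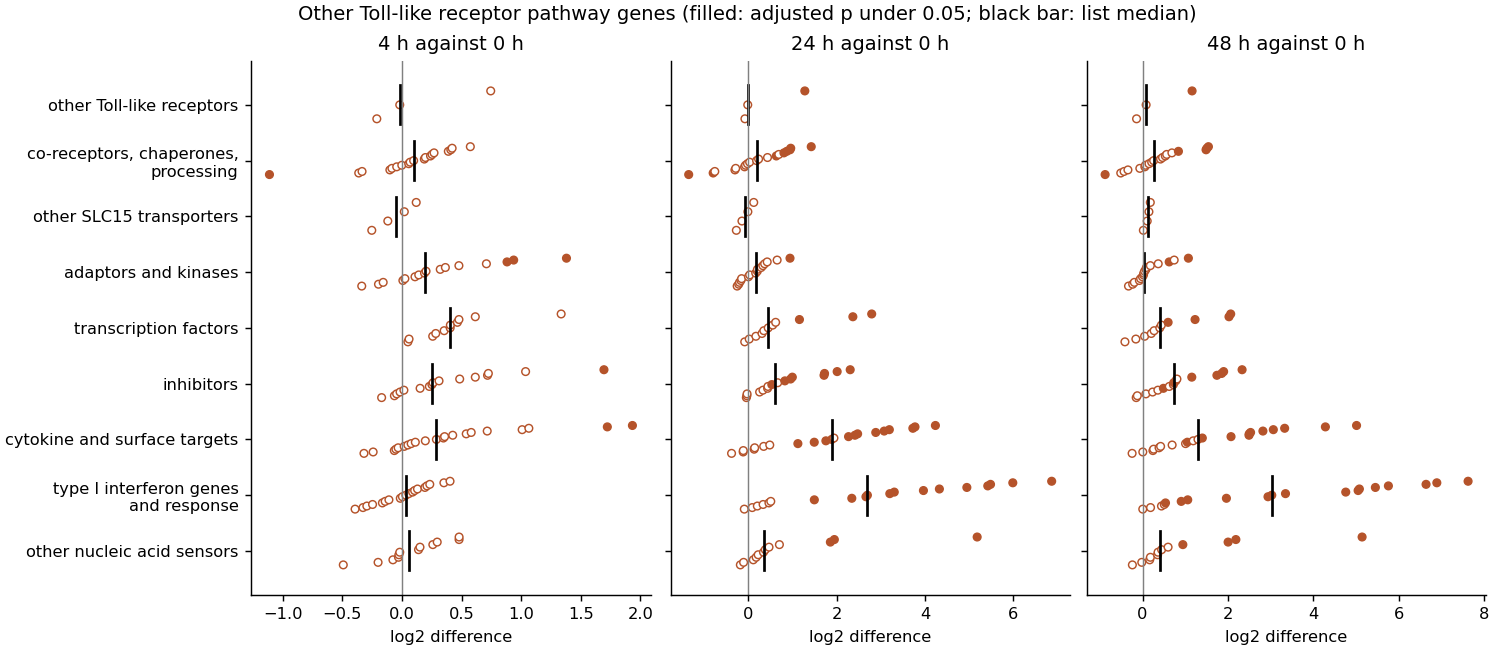
Differences from 0 h (log2) at 4 h, 24 h and 48 h of the measured genes of each pathway list, 1 point per gene, with the list median as a line. The medians of the inhibitor, target and interferon lists lie above 0 at 24 h and 48 h, at 0.60, 1.89 and 2.70 at 24 h.

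Of 19 type I interferon genes and response genes, 15 passed the F test, where 16.4% of all genes did. None of the 19 was called at 4, 8 or 12 h, 13 rose at 24 h and 15 at 48 h, and 0 fell, with medians of 2.70 and 3.02. Over all genes, 1.75%, 6.68% and 8.05% were called at 4, 8 and 12 h, and 6.74% and 6.92% rose at 24 h and 48 h. IFI44L, IFIT1, IFI44 and RSAD2, all products induced by interferon, rose by 7.62, 6.89, 6.63 and 5.75 at 48 h, which are lower limits since their levels at 0 h were near background. IFNB1, which encodes interferon beta, rose by at least 1.5 at 24 h (SE 0.37, adjusted p = 0.0111), a call lost without replicate 1 or 2 of 24 h, and it lay below the lower quartile of its array on 14 of 18 arrays. The mean of the list lay between 3.56 and 3.87 on the 12 arrays of 0 to 12 h. It was 7.23, 7.08 and 5.37 on the arrays of 24 h and 7.18, 7.46 and 6.29 on those of 48 h. Replicate 3 had the lowest list mean at both late times, as it had the lowest TLR3, while TLR6 was highest in replicate 3 at both. The part of these replicate 3 arrays in the TLR3 and MYD88 results was not tested beyond leaving each out.

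**Figure D4:**
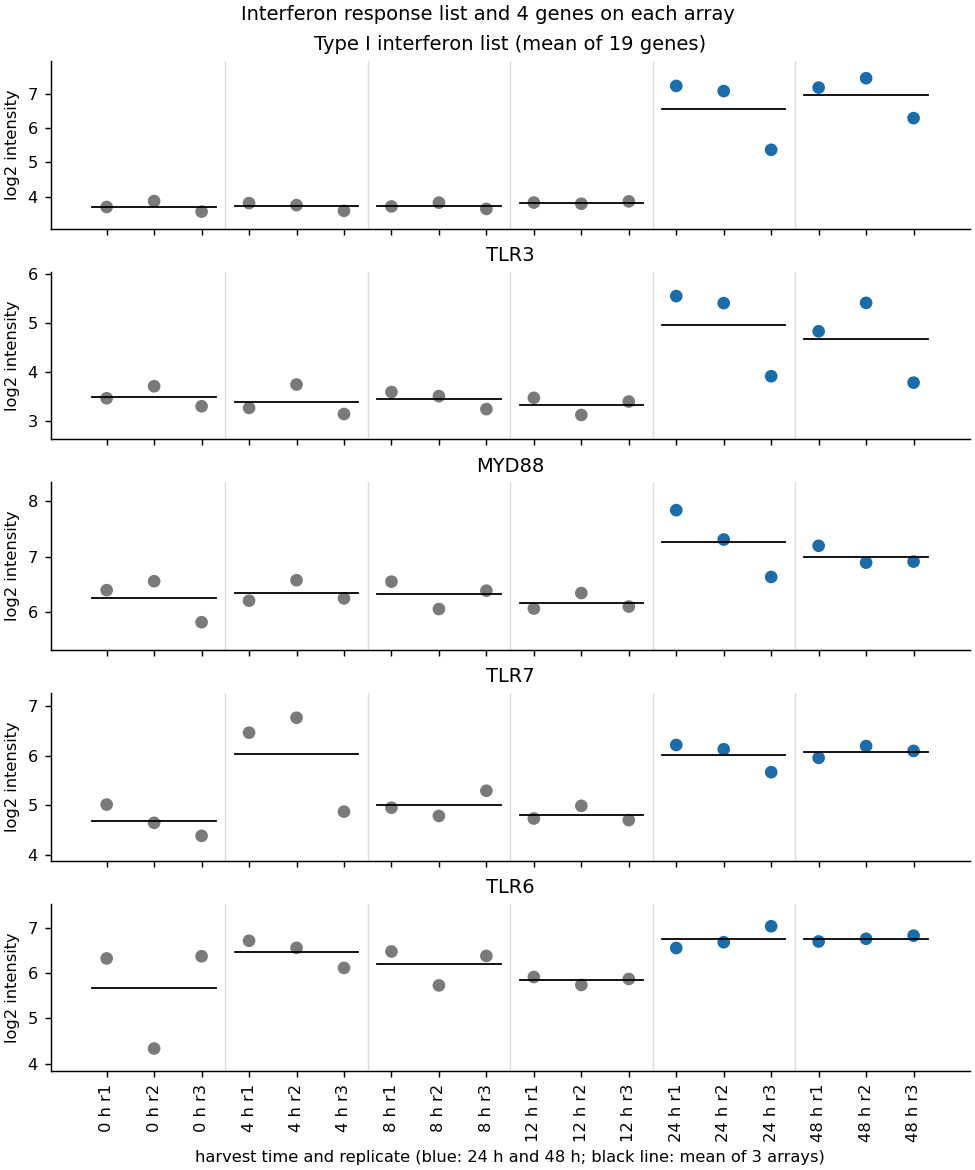
Mean level of the 19 interferon genes (log2 intensity) on each array beside the levels of TLR3, MYD88, TLR7 and TLR6 on the same arrays, by harvest time (h). Replicate 3 of 24 h and of 48 h lies below the other 2 arrays of its time for the interferon mean (5.37 and 6.29) and for TLR3 (3.91 and 3.78).

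Of 12 other nucleic acid sensors and their adaptors, 5 passed the F test, and 3 rose at 24 h and 4 at 48 h. The matching shares of all genes were 16.4%, 6.74% and 6.92%. RIGI and IFIH1, cytosolic RNA sensors, rose by 5.18 at 24 h and 2.18 at 48 h, and EIF2AK2, an RNA-activated kinase, by 2.0 at 48 h. IFI16, a DNA sensor, fell by 0.67 at 12 h. At 24 h 5 of them rose without replicate 3 of 24 h.

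By root mean square distance over the 5 differences from 0 h, the 3 genes nearest to TASL were ZNF33A, IKZF3 and BCL7A, at 0.19, 0.27 and 0.31 log2 units. IKZF3, a lymphoid transcription factor, differed from 0 h by -1.36, -2.34, -2.36, -1.44 and -1.35. Nearest to TLR3 were ZCWPW2, H2BC5 and LAP3 (0.12, 0.14 and 0.15), and LAP3, an aminopeptidase, differed by 1.22 at 24 h and 1.32 at 48 h. Nearest to TLR7 were MAP3K8, PTGER4 and MUC12 (0.33, 0.34 and 0.35), and MAP3K8 shared the higher 4 h value (1.38). Nearest to MYD88 were ZNF514, TMEM131 and IQSEC1 (0.13, 0.15 and 0.15). These genes were chosen by their likeness, so it was not tested.

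**Figure D5:**
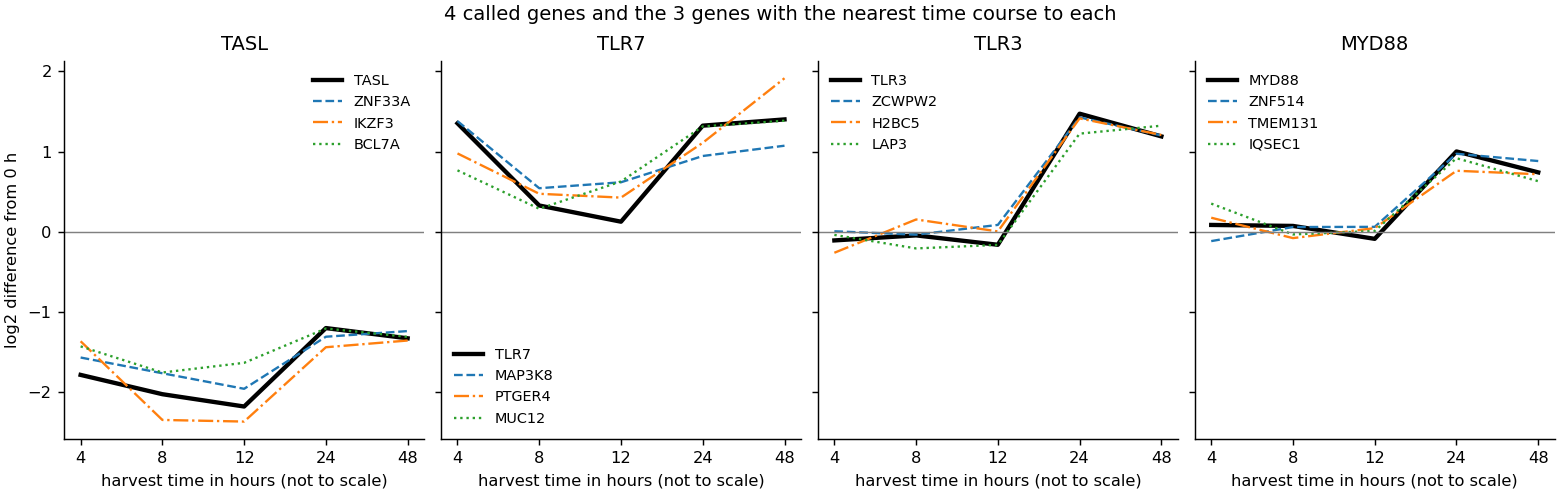
Differences from 0 h (log2) at 4, 8, 12, 24 and 48 h of the 4 genes that passed the F test, each with its 3 nearest genes by root mean square distance. The TASL panel falls early and stays below 0, the TLR3 and MYD88 panels rise between 12 h and 24 h, and TLR7 is the panel with a high value at 4 h.

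The labelled cell type was checked against its markers. Of 10 B cell markers, 9 lay above the lower quartile on all 18 arrays, and MS4A1 lay between 8.33 and 10.53. At 4 h none of the 10 passed, with a median difference of -0.29, and 4 fell at 8 h, 7 at 12 h and 4 at both 24 h and 48 h, among them CR2 by 3.07 at 12 h. Lower calls over all genes were 0.586%, 3.18%, 4.14%, 5.74% and 8.11% at 4, 8, 12, 24 and 48 h. The mean over the 10 B cell markers was 6.59 to 6.89 on the arrays of 0 h, 6.17 to 6.86 on those of 4 h and 5.48 to 5.68 on those of 12 h, and its part in the TASL values was not tested. In bulk samples, fewer cells of a type and less RNA per cell cannot be told apart. Of 5 plasmacytoid dendritic cell markers, a cell type known for TLR7 and TLR9, 1 rose (IL3RA, by at least 1.01 at 48 h, a call lost without replicate 2 of 48 h), CLEC4C lay between 2.79 and 3.36, and the list mean was 4.38 to 4.46 on the arrays of 0 h and 4.60 to 5.05 on those of 48 h. Of 9 monocyte and macrophage markers CD68 alone rose, by 3.54 at 48 h, CD14 lay between 3.11 and 4.04, S100A8 was below the lower quartile on 16 of 18 arrays, and the list mean was 3.28 to 3.46 at 0 h and 3.81 to 3.85 at 48 h. Of 7 plasma cell markers 1 rose and 3 fell at 24 h, with JCHAIN lower by 7.29-fold at 48 h. Among all genes, 6.74% rose and 5.74% fell at 24 h, and 6.92% rose and 8.11% fell at 48 h. Of 9 T cell and NK cell markers CD3D rose by at least 1.57 at 24 h, and none of 10 fibroblast and epithelial markers passed.

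Array medians lay between 4.03 and 4.25, and 0 pairs of arrays were identical. Replicate 2 of 8 h had the narrowest interquartile range, 2.37, and the others had 2.74 to 3.16.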

How the data were processed

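The deposited values are log2 intensities, 1 per probe set, used as the authors deposited them. The base was deduced from their range, and their software, background correction and normalization are not given in the sources used here. The platform's gene table named 1 gene for 19460 of 33297 probe sets, and 19429 matched RefSeq's gene table by gene ID. Each of 18417 genes was represented by its 1-gene probe set of highest mean, a choice that mattered for 769 genes.

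All 18 arrays entered 1 linear model of harvest time in limma 3.58.1 (R 4.3.3, empirical Bayes, with 5.58 prior and 12 residual degrees of freedom). The overall F test and two-sided moderated tests of each time against 0 h and against the time before were adjusted by the Benjamini-Hochberg method over all genes, with a call at an adjusted p under 0.05. The script was tested on simulated data. Nothing beyond the word biological says how the replicates arose, so p-values measure the spread between these arrays. Promoter windows came from RefSeq (GRCh38.p14). Python 3.11.15, pandas 2.3.3 and matplotlib 3.10.9 were used for tables and plots.

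The listed genes and the pathway and marker lists were chosen with earlier results of these data known. All 10 listed genes are named. Of each list, the text names up to 4 genes past the F test with the largest difference from 0 h, or the 2 of smallest F p where fewer than 2 passed, and for each listed gene past the F test its 3 nearest profiles. CD180, IRF5, IRF7, IFNB1, TLR2, CD14, CLEC4C and S100A8 were named outside this rule, with their values known.

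Other settings tried were centring on array medians, quantile normalization, a filter on the lowest means, averaging or testing singly the probe sets of a gene, array weights, the arrays of 2 times alone, the replicate number as a block, and leaving out each array. Leaving out 3 arrays that stand apart (replicate 2 of 0 h, replicate 2 of 8 h and replicate 3 of 24 h) was chosen after seeing the data.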

Additional observations from a re-analysis of the deposited data

How the results depend on the processing

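The 14 called differences of the 9 genes kept their direction under all 27 alternatives, and 6 of them, the falls of TASL at 5 times and the rise of TLR7 at 48 h, kept their call under each. The count of 2 genes called at 4 h was 1 with quantile normalization, with median centring, in the fit of 2 times alone and without the 3 arrays that stand apart. At 12 h the count of 1 was 2 with array weights and without those 3 arrays. At 48 h the count of 3 was 5 with quantile normalization. From 4 h to 8 h the count of 0 was 1 with array weights, and from 12 h to 24 h the count of 3 was 5 with array weights and without the 3 arrays. Leaving out each array in turn gave 4 to 7 genes for the F test, 1 to 2 at 4 h, 1 to 1 at 8 h, 1 to 2 at 12 h, 1 to 5 at 24 h and 2 to 4 at 48 h against 0 h. It gave 0 to 1 from 4 h to 8 h, 0 to 0 from 8 h to 12 h, 0 to 5 from 12 h to 24 h and 0 to 0 from 24 h to 48 h. Where the design left fewer arrays, fewer arrays stood behind a call, and otherwise the cause was not tested. Of the 9 genes, 6 passed the F test with array weights (TLR1 and SLC15A4 added) and without the 3 arrays (TLR1 and TLR6 added), and 5 with median centring (TLR1) and with quantile normalization (SLC15A4), against 4. With array weights the F test counts of 7 processing genes, 4 adaptors, 3 transcription factors, 7 inhibitors and 10 targets were 15, 8, 7, 11 and 18. The share of all genes that passed was not counted under any alternative. Whether these higher counts are particular to the lists or to the 9 genes therefore cannot be told.

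The main fit did not pair arrays by the replicate numbers of the labels. Deviations from the group means correlated between same-numbered arrays with a median r of 0.08 (-0.24 to 0.60 over 45 pairs, 20 of them over 0.1). Between arrays of different numbers the median r was -0.06 (-0.42 to 0.44 over 90 pairs, 25 of them over 0.1). By mean r, 9 of 18 arrays were closest to their own number. Whether the numbers mark a pairing was not tested. With the replicate number as a block, 5 genes were called at 48 h against 3 without it, MYD88 (adjusted p = 0.0352) and TLR6 (0.0406) being added. At 24 h 5 were called with the block against 4, TLR6 (0.0473) being added, and the other counts of these genes were the same. The fit of 2 times alone has no F test over all times. Genes near the lower end of the scale, such as TLR2, TLR8 and TASL at 12 h, can hide changes under the background.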
